A study of Mus musculus with 16 samples.

Results

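The genes described here are amino acid transporters of the plasma membrane (Slc3a2, Slc7a5, Slc7a8, Slc43a1, Slc7a1, Slc7a2, Slc38a2, Slc38a4 and Slc1a5) together with Glul, which encodes glutamine synthetase. They were taken by gene symbol, 10 of the 21923 genes in the table, and all 10 passed the filter on low counts in every comparison. Poly(A) RNA of the gastrocnemius, a calf muscle, was sequenced on day 30 as 1 library per mouse, to ask how cachexia, the muscle wasting of cancer, and its treatment change the muscle. Each of the groups NOR, CAC, AM and KD held 4 mice, bought at an age of 6 to 8 weeks and thus older on day 30. Replicates 1 and 2 are labelled C57BL/6, the host of LLC lung carcinoma cells, and replicates 3 and 4 BABL/c, the labels' spelling of BALB/c, the host of CT26 colon carcinoma cells, so strain and tumor line change together. NOR mice were injected with PBS and no tumor cells. The CAC mice bore subcutaneous LLC or CT26 tumors, AM mice (titled T) carried the same tumors and received amiloride, a diuretic, intraperitoneally at 2 mg/kg every day from day 9, and KD mice carried LLC or CT26 cells in which Rab27a and Rab27b had been knocked down by shRNA. The knock-down was in the injected cells and not in the mouse, and NOR, CAC and KD mice all had PBS in place of amiloride from day 9.

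Amino acids cross the muscle membrane through carriers that differ in what they take and in what they exchange or co-transport. Slc3a2 encodes the heavy chain that brings a light chain such as Slc7a5 or Slc7a8 to the cell surface, and these heterodimers exchange large neutral amino acids, leucine among them. Muscle makes glutamine from glutamate and ammonia by glutamine synthetase and releases it into the blood, and its output is known to rise in catabolic states.

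Library totals ran from 35913190 to 61032708 counts. The muscle fibre markers (Ckm, Acta1, Mylpf, Tnnt3, Atp2a1 and Tnni2) summed to 62125 to 165373 CPM (counts scaled to a common library size), so that all 16 libraries were muscle. No gene separated the 8 libraries labelled C57BL/6 from the 8 labelled BALB/c by 2-fold or more, whereas 18 genes separated CAC replicate 4, AM replicates 1 and 3 and KD replicate 1 from the other 12 by 4-fold or more, a split that crosses the strain labels. None of these 4 is a NOR mouse, so the split is not even over the groups. Values given below by strain label rest on the labels alone. AM replicate 1 held hepatocyte RNA, at 1707 summed CPM of 6 markers against at most 21.1 elsewhere. KD replicate 3 had 0 counts over 4 Y-linked genes, which summed to 4558 to 8438 counts in each other library, and the labels name BALB/c mice of both sexes. Lymphocyte markers summed to 0.453 to 4.10 CPM in NOR replicate 1, CAC replicates 1 and 4 and KD replicates 2 and 3, and to 35.5 to 423 CPM in the other 11 libraries. The separate libraries are labelled as mice of a group, and bulk RNA cannot tell fewer cells of a type from less RNA per cell.

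Per kilobase of transcript, the level of Glul was the highest of the members. Its mean over the 16 mice was 603 FPKM (which also divides by gene length, so that genes can be compared). Slc3a2 followed at 89.1 FPKM, then Slc1a5 at 46.1, Slc38a4 at 37.7 and Slc38a2 at 35.0 FPKM. The least abundant were Slc43a1 at 16.4, Slc7a2 at 13.3, Slc7a8 at 6.26, Slc7a1 at 5.84 and Slc7a5 at 2.86 FPKM. The light chain genes of the large neutral amino acid carrier were thus far below their heavy chain. All further levels are CPM with TMM scaling, which compares mice and not genes.

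**Figure D1:**
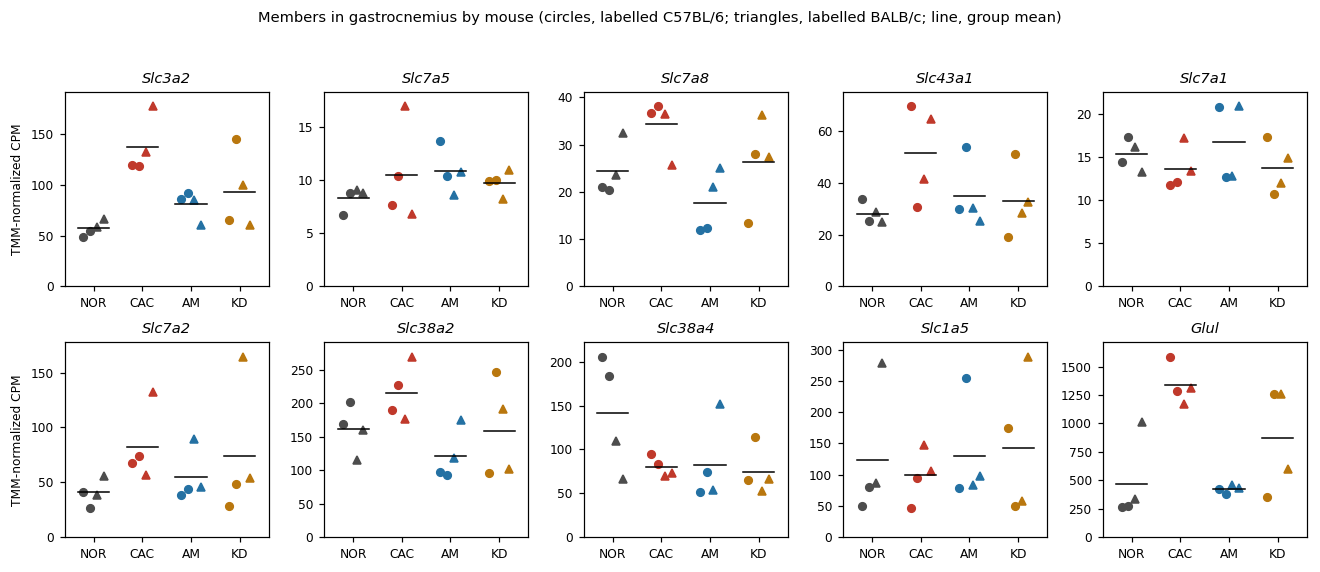
Level of each member in each mouse, in TMM-normalized CPM (vertical axes from 0), for NOR, CAC, AM and KD mice with n = 4 each. Circles are mice labelled C57BL/6, triangles mice labelled BALB/c, and lines group means. Slc3a2 and Glul lay higher in all 4 CAC mice than in any NOR or AM mouse, while KD mice spread over both ranges and Slc1a5 spread widely inside every group.

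Tumor-bearing and normal muscle were compared first. In the CAC gastrocnemius Slc3a2 rose 2.40-fold, and it was the only 1 of the 10 members past both limits in edgeR's test (a fold change of at least 1.5 either way and an adjusted p of at most 0.05 over all genes tested). Of all genes 9.45% passed these limits (4.32% higher), so the share of the members that did was near the background. DESeq2 called 4 members, and of 14666 genes 839 higher and 1082 lower. With limma-voom these were 2 members, and 627 and 826 genes. Glul, Slc7a2 and Slc43a1 were 2.84-fold, 2.03-fold and 1.84-fold higher in the CAC mice, with adjusted p between 0.0534 and 0.0609. At an unadjusted p of 0.05 there were 6 members, 5 higher and 1 lower in CAC mice, where 29.1% of all genes stood. The groups did not overlap for 3 members, beside 22.8% of all genes. The median log2 fold change of the members was 0.45, and that of all genes tested was 0.01.

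Slc3a2 (ENSMUSG00000010095, GRCm38 chr19:8706882-8723369, minus strand) encodes the CD98 heavy chain. Its levels in NOR replicates 1 to 4 were 48.5, 54.8, 58.7 and 66.5 CPM. In the CAC mice they were 120.2, 118, 132 and 178 CPM. Every CAC mouse was above every NOR mouse, and the lowest CAC value was 118 CPM. The difference was 1.26 ± 0.16 on the log2 scale (SE, adjusted p = 0.00377). A two-sided exact permutation test on the CPM values gave p = 0.0286, the smallest that 4 against 4 mice allow. The call held without each of the 8 libraries in turn (log2 fold change 1.11 to 1.34, adjusted p at most 0.0187), and the log2 fold change was 1.24 in mice labelled C57BL/6 (adjusted p = 0.0387) and 1.30 in those labelled BALB/c (adjusted p = 0.122).

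The sequence just before the annotated start of Slc3a2 is shown with that of Glul, since these are the members that passed the limits. It comes from the RefSeq promoter table (GRCm38.p6, minus strand, chr19:8713898-8713960) and stops where an exon of another Slc3a2 transcript in GENCODE M21 begins, so it lies in an intron of the longer gene model. The Glul stretch (plus strand, chr1:153899679-153899928) lies outside Glul and inside an exon of Teddm2 on the opposite strand, with its last bases in Mir8114.
Slc3a2: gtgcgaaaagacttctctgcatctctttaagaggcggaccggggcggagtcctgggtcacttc
Glul: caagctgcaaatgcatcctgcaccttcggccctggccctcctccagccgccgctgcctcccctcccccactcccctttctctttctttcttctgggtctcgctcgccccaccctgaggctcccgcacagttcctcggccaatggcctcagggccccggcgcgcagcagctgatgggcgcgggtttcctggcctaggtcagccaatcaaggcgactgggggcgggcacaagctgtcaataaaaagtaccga
Windows from 250 bases before to 50 after the start were given for 7 of the 10 members, in 10 windows, and were searched on both strands for an amino acid response element (TGATGNAA), a glucocorticoid receptor half-site (TGTTCT) and a FoxO element (GTAAACA). The first and the last were in 0 of the 10 windows, against 3.97% and 3.65% of 32851 promoters. The half-site was in 2 of 10, against 19% of promoters, and its letters do not overlap the other motifs. It began 75 bases before the second start of Slc7a1 (chr5:148392875-148392900, minus strand) and 108 bases before the third start of Slc38a4 (chr15:97020452-97020477, minus strand), shown with 10 bases on each side and the half-site in capitals. The Slc7a1 stretch overlaps an annotated exon in GENCODE M21, and the Slc38a4 stretch does not.
Slc7a1: aaaaacgtatTGTTCTgtgcggacaa
Slc38a4: aaggcactaaTGTTCTttctagctgc

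Glul (ENSMUSG00000026473, GRCm38 chr1:153899944-153909723, plus strand) overlaps Teddm2 on the opposite strand, and whether strand was used in counting is not given in the sources used here. NOR replicates 1 to 4 held 267, 271, 335 and 1010.2 CPM of Glul. CAC replicates held 1585, 1287, 1171 and 1313 CPM. All CAC mice were above all NOR mice, and NOR replicate 4 stood far above the other NOR mice. Its log2 fold change was 1.51 ± 0.44 (SE), and the adjusted p of 0.0560 missed the limit. Without NOR replicate 4 the log2 fold change was 2.20 ± 0.18 (SE, adjusted p = 0.00323), whereas it was 0.88 (adjusted p = 0.505) in the mice labelled BALB/c alone and 2.46 (adjusted p = 0.0291) in those labelled C57BL/6. The interaction of strain label and tumor was not called for Glul (difference of log2 fold changes -1.53 ± 0.66, SE, BALB/c minus C57BL/6, adjusted p = 0.998).

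The light chains of Slc3a2 were not called in edgeR's test of all 8 libraries. Slc7a8 (chr14:54722209-54781946, minus strand), which carries small as well as large neutral amino acids, was at 20.9, 20.4, 23.7 and 32.5 CPM in NOR mice and at 36.7, 38.1, 36.4 and 25.8 CPM in CAC mice. CAC replicate 4 was inside the NOR range, and the log2 fold change was 0.49 ± 0.19 (SE, adjusted p = 0.118). Over 21 alternatives it ran from 0.14 to 0.90 and was called in 2. The interaction of strain label and tumor was -0.71 ± 0.31 for Slc7a8 (SE, BALB/c minus C57BL/6, adjusted p = 0.998). Slc7a5 (chr8:121881150-121907694, minus strand), the leucine-preferring light chain, was at 6.69 to 9.05 CPM in NOR mice and 6.84 to 17.0 CPM in CAC mice. Its log2 fold change was 0.33 ± 0.28 (SE, adjusted p = 0.502), and 0.0052 to 0.49 with single mice left out. Slc7a5 overlaps Gm20388 on the opposite strand. Per kilobase, Slc3a2 was at 39.3 to 65.4 FPKM in NOR mice and 110.9 to 182 FPKM in CAC mice, while the sum of the 6 light chains known to pair with it (Slc7a5, Slc7a6, Slc7a7, Slc7a8, Slc7a10 and Slc7a11) was 20.2 to 53.4 and 29.0 to 80.6 FPKM. The ratio of heavy to light chains was 1.75 ± 0.37 in NOR mice and 3.07 ± 0.86 in CAC mice (SD, n = 4), with overlapping ranges of 1.22 to 2.05 and 1.90 to 3.83. It was 2.22 ± 0.47 in AM and 2.63 ± 1.72 in KD mice. In NOR, CAC and KD mice, though not in AM mice, the lowest ratio was that of the mouse with the most adipocyte marker RNA (2806, 4060.3 and 2513 summed CPM), whose part in the ratio was not tested.

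Slc43a1 (chr2:84838850-84863594, plus strand) encodes a facilitative carrier of branched-chain and other large neutral amino acids that works without a heavy chain. It was at 33.6, 25.3, 28.7 and 24.8 CPM in NOR mice. The CAC mice had 69.7, 30.6, 41.7 and 64.8 CPM, of which replicate 2 lay inside the NOR range. Its log2 fold change of 0.88 ± 0.26 (SE, adjusted p = 0.0534) passed the limits only without CAC replicate 2 among the libraries left out (1.07, adjusted p = 0.0181).

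The cationic amino acid carriers take up arginine and lysine. Slc7a2 (chr8:40862396-40922308, plus strand), the form known to be induced in inflamed and hormone-treated tissue, was at 41.5, 26.5, 38.7 and 56.2 CPM in NOR mice. CAC mice had 67.4, 74.0, 56.7 and 132 CPM, all above NOR, although CAC replicate 3 cleared the highest NOR mouse by little. The log2 fold change was 1.02 ± 0.31 (SE, adjusted p = 0.0609), and of the 8 fits with a mouse left out only that without CAC replicate 3 gave a call (1.18, adjusted p = 0.0482). Without CAC replicate 4, the highest CAC mouse, it was 0.70 (adjusted p = 0.0996). Slc7a1 (chr5:148327410-148399904, minus strand), the widely expressed form, was at 13.2 to 17.3 CPM in NOR and 11.7 to 17.2 CPM in CAC mice. CAC replicates 1 and 2 were below every NOR mouse and the others inside the NOR range, with a log2 fold change of -0.17 ± 0.15 (SE, adjusted p = 0.528).

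Among the sodium-coupled carriers of small neutral amino acids, Slc38a2 (chr15:96687392-96699730, minus strand), which adapts to amino acid supply, had values of 169, 202, 115 and 159.8 CPM in NOR mice. In CAC mice it was at 190.1, 228, 176 and 269 CPM (log2 fold change 0.42 ± 0.20, SE, adjusted p = 0.200). Slc38a4 (chr15:96994820-97055956, minus strand), another member of that family, had a lower mean in CAC than in NOR mice. It was at 206, 184, 109.6 and 66.4 CPM in NOR mice, the widest relative spread among NOR mice after Slc1a5 and Glul, and at 95.2, 83.9, 69.4 and 73.2 CPM in CAC mice. Its log2 fold change of -0.81 ± 0.32 (SE) missed the limit at an adjusted p of 0.134. Without NOR replicate 4, the lowest NOR mouse, it was -1.05 (adjusted p = 0.0294), and Slc7a8 (0.66, adjusted p = 0.0399) and Glul passed as well.

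**Figure D2:**
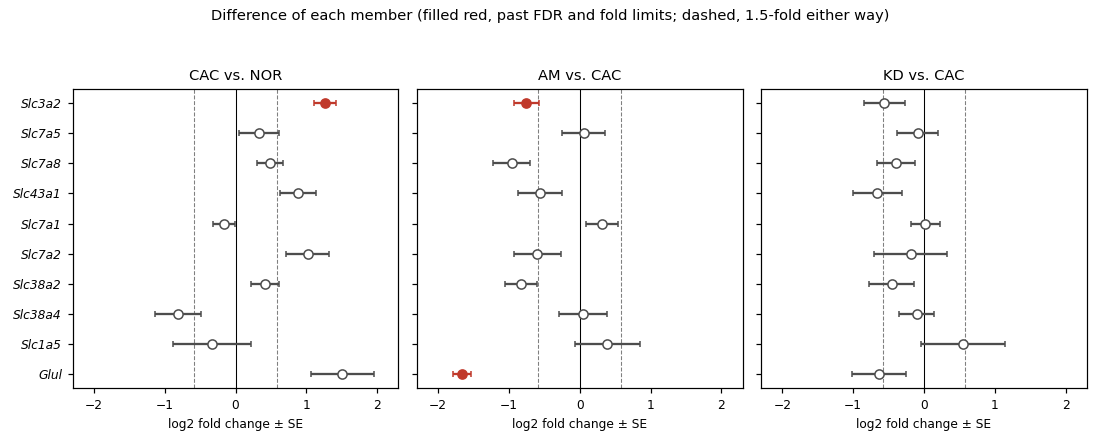
Log2 fold change (horizontal axis, bars ± SE of the edgeR fit, n = 4 mice per group) of each member in CAC relative to NOR mice and in AM or KD relative to CAC mice. Filled red points passed the limits on adjusted p and fold change, which were Slc3a2 in the left panel (1.26) and Slc3a2 (-0.75) and Glul (-1.66) in the middle one. No member is filled in the right panel, and dashed lines mark 1.5-fold either way.

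Slc1a5 (chr7:16781340-16798274, plus strand), which exchanges glutamine for other neutral amino acids, did not follow the groups. Its values were 50.3, 79.9, 85.8 and 279 CPM in NOR mice and 46.8, 93.8, 148 and 106 CPM in CAC mice. AM mice had 78.9, 255, 84.1 and 98.5 CPM and KD mice 174, 49.1, 58.5 and 288 CPM. All groups overlapped, and in NOR, AM and KD the highest mouse was far above the lowest. CAC and NOR mice differed by -0.33 ± 0.55 on the log2 scale, AM and CAC mice by 0.39 ± 0.46, and KD and CAC mice by 0.55 ± 0.59 (SE, adjusted p at least 0.682). Its level moved most closely with the RNA of adipocyte markers (Adipoq, Plin1, Cidec, Lep and Cfd), whose sum was 243 CPM in CAC replicate 1, the mouse with the least Slc1a5, and 2513 CPM in KD replicate 4, the mouse with the most. In each group the mouse with the most adipocyte RNA had the most Slc1a5. Over the 16 mice, on a log2(CPM + 1) scale, Pearson's r was 0.92 and Spearman's rho 0.93 (permutation p = 1e-05 each, the smallest 100000 permutations can give, and 9e-04 adjusted over the 90 relations of 10 members with 9 marker lists). Without CAC replicates 1 and 3, the mice farthest from the median adipocyte sum, r was 0.96, and after the group means were removed it was 0.94. Slc1a5 was also lower where endothelial markers were higher (r = -0.71, rho = -0.63, adjusted permutation p = 0.0285 and 0.0900, r = -0.46 without NOR replicate 4 and KD replicate 4, and -0.79 after the group means were removed). It was higher where macrophage markers were (r = 0.65, rho = 0.73, adjusted permutation p = 0.0551 and 0.0378, r = 0.66 without KD replicate 3 and NOR replicate 1, and 0.75 after the group means were removed). With the adipocyte sum as a covariate, CAC and NOR mice differed by -0.41 ± 0.21 (log2, SE, adjusted p = 0.221), AM and CAC mice by 0.25 ± 0.19, and KD and CAC mice by 0.37 ± 0.27. Against NOR mice the log2 values with this covariate were -0.33 ± 0.12 in AM mice (SE, adjusted p = 0.653) and -0.13 ± 0.16 in KD mice (adjusted p = 0.883), where they had been 0.06 and 0.21 without it. The part of these cells in the result was not tested further.

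**Figure D3:**
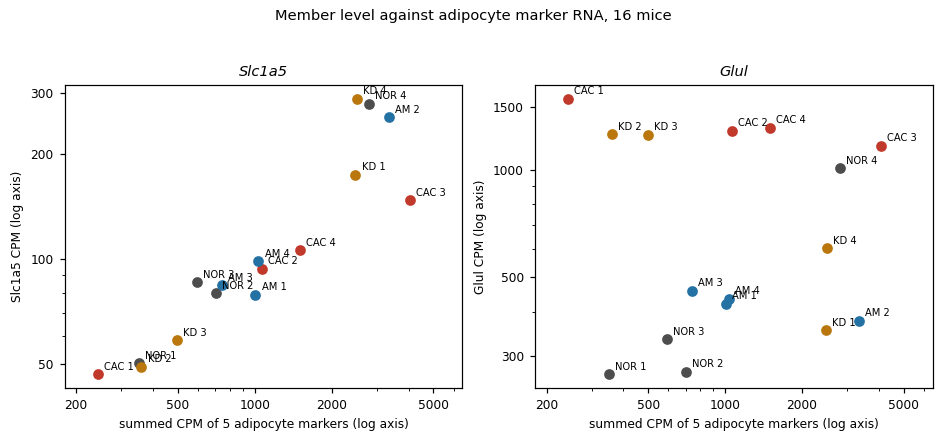
Level of Slc1a5 (left) and Glul (right) in CPM against the summed CPM of 5 adipocyte markers in each of 16 mice, both axes logarithmic, with points colored and named by group and replicate. Slc1a5 lay between 46.8 and 288 CPM and in each group was highest in the mouse with the most adipocyte RNA (r = 0.92 over all mice), while r was -0.04 for Glul.

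Of the 90 relations 4 passed an adjusted permutation p of 0.05 by both Pearson's r and Spearman's rho, and the other 3 were weaker. Slc3a2 was higher where erythroid markers were (r = 0.71, rho = 0.75, adjusted permutation p = 0.0285 and 0.0225) and lower where fibroblast markers were (r = -0.75, rho = -0.81, adjusted permutation p = 0.0264 and 0.0104). Without the 2 mice farthest from the median on each marker axis, r was 0.75 and -0.82, and after the group means were removed it was 0.62 and -0.57. The permutations for all 90 relations shuffled the mice without regard to group, and r after the group means were removed was not tested. These markers moved with the groups as well. Erythroid markers were at 1050 to 1359 summed CPM in NOR and 3629 to 8619 in CAC mice with 5 of 6 called higher, neutrophil markers at 5.85 to 22.8 and 83.0 to 190.5 with 3 of 5 called higher, and fibroblast markers at 1705 to 2110.1 and 771 to 1284 with 2 of 5 called lower. Endothelial markers were at 931 to 1481 and 1255 to 1641 summed CPM with 2 of 6 called higher (Pecam1 and Vwf), while Kdr was at -0.91 on the log2 scale and DESeq2 called 1 of the 6 lower. Their part in the result for Slc3a2 was not tested. Slc7a1 was higher where lymphocyte markers were (r = 0.71, rho = 0.78, adjusted permutation p = 0.0309 and 0.0147), with r = 0.61 without KD replicates 2 and 3 and r = 0.65 after the group means were removed.

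AM and CAC muscle were compared next, to see what amiloride did in tumor-bearing mice. Glul fell to 0.316 times and Slc3a2 to 0.593 times the CAC level, the 2 of 10 members past the limits in edgeR's test, where 3.66% of all genes passed and 2.03% were lower. DESeq2 called 4 members, with Slc7a8 and Slc38a2 as well, and of 14674 genes 640 higher and 479 lower. By edgeR at an unadjusted p of 0.05 Slc7a8 and Slc38a2 were lower too, which made 4 members beside 21.7% of all genes. The groups did not overlap for these 4 members, and for 15.7% of all genes. The median log2 fold change was -0.58 over the members and 0.01 over all genes. The CAC mice are the same as in the comparison with NOR mice, so the opposite directions in the comparisons are not independent of each other. Fibroblast markers moved as well, at 771 to 1284 summed CPM in CAC and 1430.3 to 1925 in AM mice, with 2 of 5 called higher in AM mice (Col1a1 3.02 and Dpt 1.25 on the log2 scale). Over the 16 mice Glul was lower where fibroblast markers were higher (r = -0.74, rho = -0.70, adjusted permutation p = 0.0285 and 0.0555, r = -0.72 without KD replicate 3 and CAC replicate 3, and -0.55 after the group means were removed), and the part of these markers in the result was not tested.

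In AM mice Glul was at 420.1, 376, 457 and 435 CPM. The range was narrow, and all 4 mice were below the lowest CAC mouse, at 1171 CPM. The difference on the log2 scale was -1.66 ± 0.13 (SE, adjusted p = 0.00223). The call held without each of the 8 libraries in turn (adjusted p at most 0.0137) and was lost in 1 fit of all 16 libraries (adjusted p = 0.0628), and AM replicate 1, the library with hepatocyte RNA, was inside the range of the other AM mice. It was -1.85 in mice labelled C57BL/6 and -1.49 in mice labelled BALB/c (adjusted p = 0.146 and 0.175, with 2 mice a group), and -1.73 (adjusted p = 0.100) without CAC replicate 4 and AM replicates 1 and 3. No gene of the table was called in that last fit.

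Slc3a2 was at 86.4, 92.5, 85.0 and 60.7 CPM in AM mice, all below the lowest CAC mouse at 118 CPM. Its log2 fold change was -0.75 ± 0.17 (SE, adjusted p = 0.0445), close to the limit. Leaving out any of the 8 libraries (CAC replicates 1 to 4, AM replicates 1 to 4) ended the call, with log2 fold changes of -0.82 to -0.61 and adjusted p of 0.0715 to 0.104. In mice labelled C57BL/6 the log2 fold change was -0.41 (adjusted p = 0.206), and in those labelled BALB/c it was -1.10 (adjusted p = 0.255).

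Slc7a8 was at 11.8, 12.4, 21.1 and 24.9 CPM in AM mice, just below the lowest CAC mouse at 25.8 CPM. The log2 fold change of -0.96 ± 0.26 (SE) had an adjusted p of 0.0758. The AM mice labelled C57BL/6 were the lower ones, and the strain interaction was 1.18 ± 0.29 (SE, adjusted p = 0.305). Hepatocyte markers summed to 1.62 to 1707 CPM in AM and 0.136 to 1.03 CPM in CAC mice, and over the 16 mice Slc7a8 was lower where they were higher (r = -0.71, rho = -0.68, adjusted permutation p = 0.0264 and 0.0643, r = -0.70 without AM replicates 1 and 3, and -0.55 after the group means were removed). Outside AM replicates 1 and 3 these markers summed to at most 14.0 CPM, with at least 1 of the 6 undetected in each library. In CAC mice 4 or 5 of the 6 were undetected, so the relation there rests on values near the limit of detection. The part of these markers in the result was not tested. Slc38a2 was at 97.7, 92.4, 119 and 176 CPM in AM mice, and its highest AM value lay just under the lowest CAC value. The log2 difference was -0.83 ± 0.23 (SE, adjusted p = 0.0780), and it passed without AM replicate 4 (-1.07, adjusted p = 0.0354).

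The other members overlapped between AM and CAC mice. Slc7a2, at 38.7 to 89.6 CPM in AM mice, had a log2 fold change of -0.60 ± 0.33, and Slc43a1, at 25.3 to 54.1 CPM, one of -0.56 ± 0.31 (SE, adjusted p = 0.341 and 0.350). With single mice left out these ran from -0.93 to -0.27 and from -0.85 to -0.39. For Slc7a1, at 12.7 to 20.9 CPM, the difference was 0.31 ± 0.23, for Slc7a5, at 8.65 to 13.7 CPM, 0.06 ± 0.30, and for Slc38a4, at 51.7 to 151 CPM, 0.05 ± 0.34 (log2, SE, adjusted p at least 0.488). Glul, Slc3a2, Slc7a8 and Slc38a2 were thus the members whose AM mice all lay below the CAC mice.

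KD and CAC muscle were compared for what changed when Rab27 was knocked down in the tumor cells. In edgeR's quasi-likelihood test 0 of 10 members were called, 0 had an unadjusted p under 0.05, and DESeq2 and limma-voom also called 0, beside 0.00685% of all genes called (1 gene) and 11.1% with an unadjusted p under 0.05. The log2 fold changes ran from -0.66 for Slc43a1 to 0.55 for Slc1a5, with a median of -0.29 over the members and 0.00 over all genes. KD mice were split between the ranges of other groups. Glul was at 354 CPM in KD replicate 1 and 602 CPM in replicate 4, and at 1259 and 1255 CPM in replicates 2 and 3, inside the CAC range. The difference from CAC mice was -0.64 ± 0.38 on the log2 scale (SE, adjusted p = 0.578), and -0.85 (adjusted p = 0.582) without KD replicate 3, the library without Y-linked counts. Leaving out single mice gave -0.88 to -0.38 (adjusted p at least 0.322).

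Slc3a2 varied among the KD mice too. It was at 65.8, 146, 100.5 and 60.9 CPM in KD mice, so that only replicate 2 was within the CAC range. The log2 difference was -0.56 ± 0.29 (SE, adjusted p = 0.517), and -0.87 (adjusted p = 0.129) without KD replicate 2. With single mice left out it ran from -0.87 to -0.40 (adjusted p at most 0.838). Slc7a2 was highest of all 16 mice in KD replicate 3, at 164 CPM, against 28.4, 48.1 and 53.9 CPM in the other KD mice (log2 fold change -0.19 ± 0.52, SE, adjusted p = 0.953, and -0.92 without that library). Slc43a1 was at 19.1 to 51.4 CPM, Slc7a8 at 13.3 to 36.2, Slc38a2 at 95.4 to 246, Slc38a4 at 52.7 to 114, Slc7a5 at 8.25 to 11.0 and Slc7a1 at 10.6 to 17.3 CPM in KD mice, each overlapping the CAC mice.

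CAC had the highest mean and KD the next for both members that were called. Slc3a2 averaged 57.2 ± 7.52 CPM in NOR, 81.2 ± 14.0 in AM, 93.3 ± 39.3 in KD and 137 ± 27.8 in CAC mice (SD, n = 4). Of neighbours in this order, AM and NOR (adjusted p = 0.518), KD and AM (adjusted p = 1.00) and CAC and KD (adjusted p = 0.517) did not pass the limits, although AM exceeded NOR at an unadjusted p of 0.00938. Glul averaged 422 ± 34.1 CPM in AM, 470.5 ± 361 in NOR, 868 ± 461 in KD and 1339 ± 175 in CAC mice, and its neighbours did not pass the limits either (adjusted p = 0.931, 0.999 and 0.578). Without NOR replicate 4 the NOR mean of Glul was 291 ± 38.1 CPM (n = 3), which placed it below the AM mean.

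AM and KD mice were also set against NOR mice and against each other. In these 3 comparisons edgeR called 0 members and 0% of all genes, and DESeq2 and limma-voom also called 0 members (of all genes, DESeq2 called 50 higher and 20 lower in AM vs. NOR, 27 and 4 in KD vs. NOR, and 0 and 1 in AM vs. KD, and limma-voom called 0). At an unadjusted p of 0.05 there was 1 member in AM vs. NOR, where 9.19% of all genes stood. That was Slc3a2, 1.43-fold higher in AM mice (log2 fold change 0.52 ± 0.16, SE, adjusted p = 0.518). In KD vs. NOR there were 2 (3.54% of genes), Slc3a2 at 0.71 ± 0.27 and Slc38a4 at -0.90 ± 0.37 (log2, SE, adjusted p = 0.999 each). With single mice left out these ran from 0.41 to 0.86 and from -1.18 to -0.69. In AM vs. KD there was 1 (1.11% of genes), Glul at -1.03 ± 0.37 (log2, SE, adjusted p = 1.00). Between AM and NOR mice Glul differed by -0.15 ± 0.43 on the log2 scale, and by 0.56 ± 0.13 (SE, adjusted p = 0.481) without NOR replicate 4. In edgeR's interaction test of strain label and condition, 0 members and 0 genes of the table were called for CAC against NOR, AM against CAC or KD against CAC mice, with 1, 2 and 0 members at an unadjusted p under 0.05, beside 4.89%, 12.4% and 5.65% of all genes.

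Genes whose pattern over the 16 mice was most like that of Slc3a2 were Ctla2a (r = 0.98) and Xbp1 (r = 0.95, log2 CPM, of 13208 genes with a mean of at least 1 CPM). Xbp1 encodes a transcription factor of the unfolded protein response. In the order NOR, CAC, AM and KD, Ctla2a averaged 13.8, 57.2, 26.4 and 33.5 CPM and Xbp1 88.2, 158, 100.5 and 114 CPM. The mice share libraries and depth in these correlations, which are a description.

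Other amino acid transporters of the plasma membrane were not called by edgeR. Of 27 listed genes 20 could be tested in CAC vs. NOR and 0 were called by edgeR, beside 9.45% of all genes, with 4 at an unadjusted p under 0.05, beside 29.1%, while DESeq2 called 2 and limma-voom 1. Slc7a6, another light chain of Slc3a2, was at 14.8 ± 0.96 CPM in NOR and 21.1 ± 3.52 in CAC mice (log2 fold change 0.51, adjusted p = 0.0374), under the fold limit. This gene was chosen after its values were seen. Against CAC mice, 0 of 19 were called by any of the tools in AM and in KD mice (3.66% and 0.00685% of all genes by edgeR), with 1 at an unadjusted p under 0.05 in each (21.7% and 11.1% of all genes).

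Transporters inside the cell were tested as well. Slc15a4, a lysosomal carrier of histidine and peptides, was the only 1 of 8 lysosomal genes called by edgeR in CAC vs. NOR, beside the 9.45% of all genes. Its mean rose from 28.4 ± 4.82 CPM in NOR to 69.7 ± 9.58 in CAC mice (SD, n = 4), a log2 fold change of 1.29 (adjusted p = 0.00272). AM mice had 30.8 ± 5.59 CPM, lower than CAC mice by a log2 fold change of -1.17 (adjusted p = 0.00937), and KD mice 31.5 ± 13.5 CPM (-1.14, adjusted p = 0.265, with 1 of the 8 genes called lower by DESeq2). Of 7 mitochondrial carriers 2 fell in CAC mice (again beside 9.45% of all genes), Slc25a12, the aspartate and glutamate carrier, by 0.64 on the log2 scale (adjusted p = 0.0383) and Slc25a15, the ornithine carrier, by 0.65 (adjusted p = 0.0149). Against CAC mice they were at 0.47 and 0.49 in AM mice (log2, adjusted p = 0.155 and 0.0875) and at 0.54 and 0.52 in KD mice (adjusted p = 0.463 and 0.426), neither called.

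Enzymes that share glutamine or glutamate with glutamine synthetase were not called in CAC vs. NOR. Of 17 listed genes, which include glutamate dehydrogenase (Glud1) and the aminotransferases (Got1, Got2, Gpt, Gpt2), edgeR, DESeq2 and limma-voom each called 0 of 16 tested, with 6 at an unadjusted p under 0.05 by edgeR, 5 of them lower, where 29.1% of all genes stood. Glud1 had a log2 fold change of 0.21 ± 0.13 (SE, adjusted p = 0.340). In AM vs. CAC edgeR called 0 of 17, with 2 at an unadjusted p under 0.05 (21.7% of all genes), DESeq2 1 and limma-voom 0. In KD vs. CAC all tools called 0 of 17, with 0 at an unadjusted p under 0.05 by edgeR (11.1% of all genes).

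Genes known to respond to amino acid shortage through Atf4 gave a mixed picture. Of 15, edgeR called 2 higher and 1 lower in CAC vs. NOR, beside 9.45% of all genes. Eif4ebp1, an inhibitor of cap-dependent translation, rose by a log2 fold change of 2.40 (adjusted p = 0.00214), and Ddit4, an inhibitor of mTOR complex activity, by 2.37 (adjusted p = 0.0226). Nupr1, a stress-response regulator, fell by 0.81 on the log2 scale (adjusted p = 0.00416). Atf4 itself was at 0.46 (adjusted p = 0.0238), under the fold limit, and Asns, asparagine synthetase, at 1.03 ± 0.53 (SE, adjusted p = 0.245), both named after their values were seen. In AM vs. CAC Eif4ebp1 (-2.08, adjusted p = 0.00552) and Vldlr (-0.70, adjusted p = 0.0224, a lipoprotein receptor, named after its values were seen) were called lower by edgeR, beside 2.03% of all genes, and DESeq2 called 4 of the 15 lower, while Ddit4 was at -1.65 (adjusted p = 0.106) and Nupr1 at 0.56 (adjusted p = 0.164). In KD vs. CAC 0 of 15 were called by edgeR, with 3 at an unadjusted p under 0.05 (11.1% of all genes), while DESeq2 called 2 and limma-voom 0, and Eif4ebp1 was at -1.87 (adjusted p = 0.231), Ddit4 at -1.55 (adjusted p = 0.418) and Nupr1 at 0.39 (adjusted p = 0.594).

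**Figure D4:**
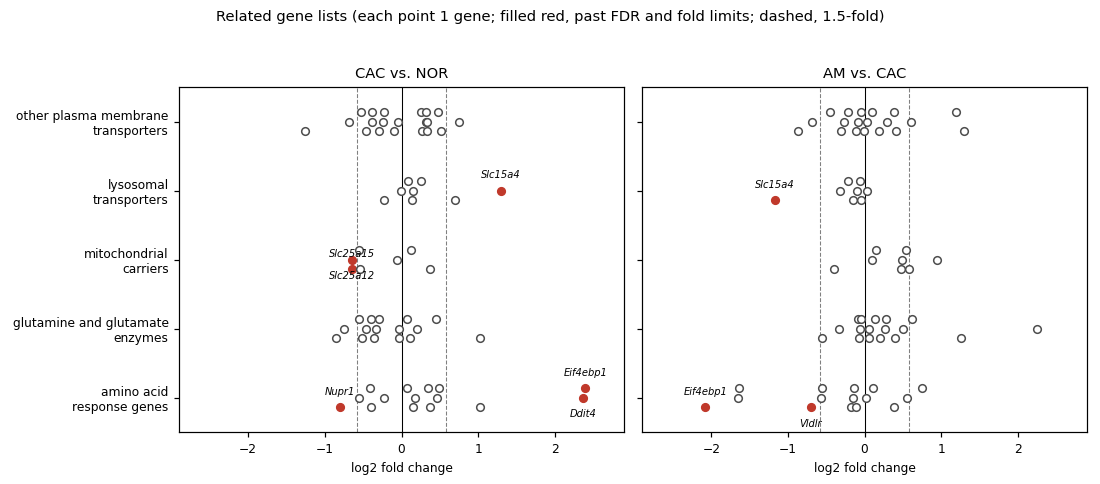
Log2 fold change (horizontal axis) of each tested gene of the related lists in CAC relative to NOR mice (left) and AM relative to CAC mice (right), with 1 point per gene, points of a list staggered vertically for legibility, and dashed lines at 1.5-fold. Filled red points passed the limits. On the left these were Slc15a4, Eif4ebp1 and Ddit4 above 0 and Slc25a12, Slc25a15 and Nupr1 below, and on the right they were Slc15a4, Eif4ebp1 and Vldlr, all below 0.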

How the data were processed

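Gastrocnemius RNA of 16 mice was enriched for poly(A), reverse transcribed with random primers and sequenced on an Illumina HiSeq2500. The authors deposited whole-number read counts per gene, without normalization, and FPKM values made from them. The submitters' processing notes name fastp, Bowtie2, HISAT2 and StringTie 1.3.1 and the builds mm9 and GRCm38. The strand setting is not given in the sources used here. Columns were mapped to mice by their names.

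Counts were tested in R 4.3.3 with edgeR 4.0.16 (TMM scaling, genes kept by filterByExpr at min.count 10 and min.total.count 15, quasi-likelihood test), 8 libraries per comparison, with Benjamini-Hochberg adjustment over all genes tested. The authors' own test, NOISeq, was not run. A gene was called at an adjusted p up to 0.05 if its fold change was 1.5 or more, or 0.667 or less. CPM used TMM factors of all 16 libraries. FPKM served for levels between genes. Alternatives were RLE and total-count scaling, no count filter, DESeq2 1.42.0, limma-voom 3.58.1, strain label or replicate number as a term, 1 fit of all libraries, each strain label alone and leaving out each mouse. Adipocyte or lymphocyte scores as covariates and a fit without 4 libraries were chosen after seeing the data. Members and lists were chosen with earlier results of these data known. Named by rule are all members, the genes of each list called in CAC vs. NOR (at most 5) and the 2 genes most like a called member. Slc7a6, Glud1, Atf4, Asns and Vldlr were given with values outside this rule. Libraries of a group differed by more than counting error (chi-square per degree of freedom at least 66.6). Labels do not say more than that each library is a mouse, so p-values measure the spread between these mice. Deviations of same-numbered libraries from their group means had r from -0.703 to 0.685. Of the 6 comparisons only AM vs. KD had all 4 pairs positive (r from 0.0695 to 0.514), and the numbers were not taken to pair mice. Positions are from GENCODE M21 (GRCm38), which matched 21905 of 21923 identifiers, and promoters from RefSeq (GRCm38.p6). The tests were checked on simulated counts. Figures were made with Python 3.11.15 and matplotlib 3.10.9.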

Additional observations from a re-analysis of the deposited data

Results flagged for a closer look

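In groups of 4 mice, the highest or lowest value of a member was set apart from the rest by Dixon's criterion in 6 of 40 groups. The criterion is set to flag about 1 in 20 groups of independent, normally spread values. The members share the same mice, so the rates cannot be set against each other. Glul reached 1010 CPM in NOR replicate 4, with the next NOR mouse at 335 CPM, and Slc1a5 reached 279 CPM in the same mouse, with the next at 85.8 CPM. Its adipocyte markers summed to 2806 CPM, the highest of the NOR mice. Slc1a5 stood at 255 CPM in AM replicate 2, where adipocyte markers summed to 3347 CPM, the highest of the AM mice. Slc7a2 was at 89.6 CPM in AM replicate 3, Slc7a8 at 25.8 CPM in CAC replicate 4, and Slc7a5 at 6.69 CPM in NOR replicate 1. AM replicate 3 and CAC replicate 4 belong to the 4 libraries that share an expression pattern across strain labels.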

How the results depend on the processing

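Slc3a2 stayed called in CAC vs. NOR in 20 of 21 alternatives, Glul in AM vs. CAC in 16 of 21 (lost with the replicate block, adjusted p = 0.0737), and Slc3a2 in AM vs. CAC in 3 of 21. The alternatives share mice and are not independent. In CAC vs. NOR the fit without the 4 libraries is the same fit as that without CAC replicate 4. The number of members called in CAC vs. NOR, 1 in the test reported, was 3 with total-count scaling, the strain label, the replicate block or the adipocyte score, 4 with DESeq2 and in the mice labelled C57BL/6, 2 with limma-voom, in 1 fit of all 16 libraries and with the lymphocyte score, 0 in the mice labelled BALB/c, and 1 to 4 with a mouse left out. In AM vs. CAC, with 2 reported, it was 1 with RLE or total-count scaling, no count filter, the strain label or the lymphocyte score, 4 with DESeq2, 0 with the replicate block, in 1 fit of all 16 libraries, with either strain label alone and without the 4 libraries with the shared pattern, and 1 to 2 with a mouse left out. It stayed at 0 in the other 4 comparisons. The replicate numbers mark no shared animal or day, and not every pair of the block correlated. Total-count scaling moved the median log2 fold change of all genes to 0.14 in CAC vs. NOR and -0.11 in KD vs. CAC. Of 14666 genes 633 were called higher and 753 lower in CAC vs. NOR, against 959 and 619 with total-count scaling, 839 and 1082 with DESeq2 and 627 and 826 with limma-voom. They were 655 and 837 with the strain label and 533 and 607 with the replicate block. With the adipocyte score they were 646 and 787, and with the lymphocyte score 686 and 1008. In 1 fit of all 16 libraries they were 516 and 688 of 15220. In mice labelled C57BL/6 they were 125 and 122 of 14604, and in those labelled BALB/c 0 of 15059. In AM vs. CAC, 239 were called higher and 298 lower, 640 and 479 with DESeq2, and 0 with the replicate block, with either strain label alone and without the 4 libraries. In KD vs. CAC, DESeq2 called 237 higher and 103 lower.

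Some members changed sign, none of them called. With total-count scaling this was so for Slc7a5 (-0.031) and Slc38a4 (-0.023) in AM vs. CAC and Slc7a1 (-0.087) in KD vs. CAC. With limma-voom Slc38a4 was at -0.10 in AM vs. CAC and Glul at 0.11 in AM vs. NOR, and with the replicate block at -0.10 and 0.12. In mice labelled C57BL/6, Slc1a5 was at 0.14 in CAC vs. NOR, Slc38a4 at -0.51 in AM mice and 0.018 in KD mice against CAC mice, Slc7a5 at 0.16 in KD vs. CAC and Glul at 0.60 in AM vs. NOR. In mice labelled BALB/c, Slc7a1 was at 0.052 in CAC vs. NOR and -0.19 in KD vs. CAC, Slc7a5 (-0.31) and Slc1a5 (-0.49) changed sign in AM vs. CAC, and Slc7a2 (0.17) and Slc7a8 (0.020) in KD vs. CAC. With the lymphocyte score it was Slc1a5 (0.037) in CAC vs. NOR, Slc7a5 (-0.28 against CAC in AM mice, 0.036 in KD mice) and Slc3a2 in AM vs. KD (0.23). Without the 4 libraries it was Slc7a5 (-0.14) in AM vs. CAC, and Slc7a1 (-0.13) and Slc7a2 (0.43) in KD vs. CAC. Leaving out single mice moved the log2 fold change of Slc1a5 from -0.59 to 0.45 in CAC vs. NOR. The ranges in AM vs. CAC were -0.10 to 0.39 for Slc7a5, -0.43 to 0.22 for Slc38a4 and -0.18 to 0.65 for Slc1a5. In KD vs. CAC they were -0.13 to 0.16 for Slc7a1, -0.92 to 0.14 for Slc7a2, -0.25 to 0.25 for Slc7a5, -0.39 to 0.041 for Slc38a4 and -0.062 to 0.84 for Slc1a5. Glul ran from -0.36 to 0.56 in AM vs. NOR, and Slc3a2 from -0.35 to 0.10 in AM vs. KD. For the member values not printed in the 3 comparisons without CAC mice, 20 of 299 values under the alternatives and 19 of 184 with a mouse left out changed sign, none called. The largest were Slc1a5 in AM vs. NOR, at -1.02 in mice labelled BALB/c, and Slc1a5 in AM vs. KD, at 0.56 in mice labelled C57BL/6. The causes were not tested. Calls with 2 mice a group rest on few residual degrees of freedom. The least abundant member, Slc7a5, had at least 247 counts in each library, and the part of depth in the calls was not tested.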
